A study of Mus musculus with 15 samples.

Results

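The ATP-binding cassette (ABC) transporters described here are 9 genes that export drugs and conjugated compounds from cells. They are *Abcb1a* and *Abcb1b*, which encode P-glycoprotein, *Abcc1*, *Abcc2*, *Abcc3*, *Abcc4*, *Abcc5* and *Abcc10*, which encode multidrug resistance-associated proteins (MRPs), and *Abcg2*, which encodes the breast cancer resistance protein. The members were chosen by gene symbol, with earlier results of these data known. All 9 were found among the 35880 gene symbols of the table, and all 9 were among the 14652 genes that passed the filter on low values. RNA was sequenced from 5 lines of the mouse Lewis lung carcinoma LL2, with 3 biologic replicates of each line and 15 samples in all. LL2 WT is the parental line, *KEAP1* KO #1, #2 and #3 are CRISPR knockouts of *Keap1*, and *NRF2* KO is a CRISPR knockout of *Nfe2l2*. Each knockout line grew from 1 sorted cell that had received a plasmid with guide RNA, Cas9 and GFP, so the gene that was cut cannot be told apart from other differences between clones, and *NRF2* KO rests on 1 clone. All lines carry the luciferase label of the purchased LL2 cells, were grown as cultured cells and received no drug.

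KEAP1 holds NRF2 at a low level by marking it for degradation. NRF2 that escapes this control enters the nucleus and binds antioxidant response elements near genes for detoxification. Detoxification is often described in phases, in which enzymes attach glutathione, glucuronic acid or sulfate to a compound, and efflux transporters then use ATP to carry the conjugate out of the cell. P-glycoprotein mainly exports hydrophobic compounds that have not been conjugated, the MRPs mainly export organic anions and conjugates, and the ABCG2 protein exports sulfate conjugates, urate and several cytotoxic drugs. These transporters are known for drug resistance of tumor cells.

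The labels were checked with 3 genes and with markers. Mean *Keap1* was 23.0 ± 1.03 CPM for the parental line and between 5.53 and 11.8 CPM for the 3 *KEAP1* KO lines. Mean *Nfe2l2* was 186 ± 19.6 CPM for the parental line and 119 ± 24.0 CPM for *NRF2* KO. It was also lower than parental in *KEAP1* KO #1, #2 and #3, at 96.4, 123 and 116 CPM. *Nfe2l2* therefore does not tell *NRF2* KO apart from the *KEAP1* KO lines. Mean *Nqo1*, a standard NRF2 target, was 30.3 CPM for the parental line, 276 to 488 CPM for the *KEAP1* KO lines and 9.82 CPM for *NRF2* KO. CPM are scaled so that every sample has nearly the same total, errors are the SD with n = 3, and the files give no depth per sample. At the average depth stated in the methods, 3 reads are about 0.1 CPM. Of the lung and epithelial markers, *Krt8* (65.1 to 186 CPM) and *Krt18* (234 to 575 CPM) were present in every sample, whereas *Epcam*, *Cdh1*, *Nkx2-1* and *Sftpc* stayed at or below 0.422 CPM. *Krt19* ranged from 0.188 to 5.33 CPM. Of the mesenchymal markers, *Vim* lay between 1534 and 5427 CPM and *Cdh2* between 0.221 and 12.45 CPM, while *Col1a1* stayed at or below 0.829 CPM. Of the endothelial markers, *Pecam1* lay between 2.42 and 7.17 CPM and *Cdh5* stayed at or below 1.54 CPM. The leukocyte markers *Ptprc* and *Cd3e* stayed at or below 0.192 CPM and *Adgre1* was listed at 0, while *Cd68* ranged from 1.78 to 36.5 CPM.

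Most of the transporters had higher means in the *KEAP1* KO lines than in the parental line, and *Abcg2* had lower means. *Abcc4* rose about 3.50- to 4.33-fold in all 3 clones, and *Abcb1b* rose 2.3- to 3.53-fold. *Abcb1a*, *Abcc1*, *Abcc3* and *Abcc5* were called in *KEAP1* KO #3 only and *Abcc2* in #2 and #3. *Abcc10* and *Abcg2* were called in none. None of the 9 passed the test in *NRF2* KO. A gene is described as called, and as having risen or fallen, when limma gave a Benjamini-Hochberg adjusted p under 0.05 over the 14652 genes and the change exceeded 1 in size on the log2(CPM + 0.1) scale. RNA came from whole cultures, so fewer cells with a transcript and less of it per cell cannot be told apart.

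In *KEAP1* KO #1, 2 of the 9 transporters were called higher (*Abcb1b* and *Abcc4*), where 4.55% of all tested genes were. In *KEAP1* KO #2 it was 3 of 9 (*Abcb1b*, *Abcc2* and *Abcc4*), where 5.94% of all genes were called higher. *KEAP1* KO #3 had 7 of 9 called higher, all but *Abcc10* and *Abcg2*, against 6.09% of all genes. No transporter was called lower in these clones, where 3.99%, 7.75% and 7.34% of all genes were called lower in #1, #2 and #3. Without the limit on size, 3, 4, 8 and 0 of the 9 had an adjusted p under 0.05 in #1, #2, #3 and *NRF2* KO, where 23.2%, 31.9%, 31.4% and 0.621% of all genes did. The median log2 fold change of the 9 genes was 0.61, 0.81 and 1.83 in the 3 clones, beside 0.11, 0.03 and 0.02 over all tested genes. In *NRF2* KO 0 of the 9 were called by limma, with 2 at an unadjusted p under 0.05 (*Abcb1a* and *Abcc1*, both with lower means), and only 0.0887% of all genes were called higher and 0.375% lower. Their median log2 fold change was −0.17, beside 0.04 over all genes. The share of all genes at an unadjusted p under 0.05 was not counted. The 4 comparisons share the LL2 WT samples.

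**Figure D1:**
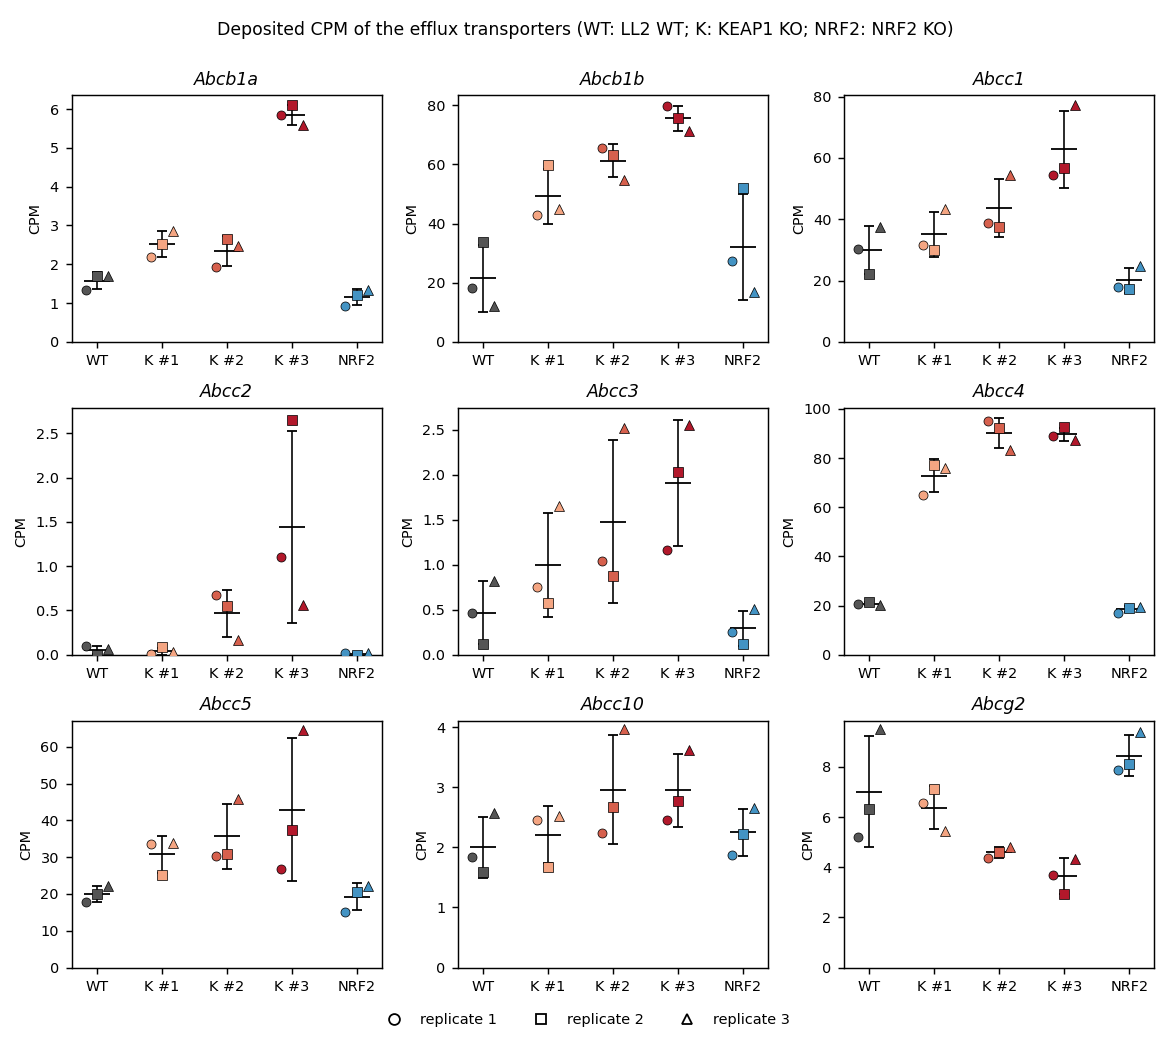
CPM of each transporter (vertical axes, linear and starting at 0, a separate scale for each gene) in the 5 lines (horizontal axes), with 1 symbol per sample, shaped by replicate number, and a bar for the mean with the SD (n = 3). The *Abcc4* samples of the *KEAP1* KO lines lie between 65.1 and 94.9 CPM and those of LL2 WT and *NRF2* KO between 17.1 and 21.4 CPM, while *Abcg2* has its lowest samples in *KEAP1* KO #3.

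*Abcb1a* and *Abcb1b* are the mouse genes for P-glycoprotein, the pump that exports taxanes, anthracyclines and vinca alkaloids. They lie side by side on chromosome 5 in GRCm38, *Abcb1a* from 8660077 to 8748575 and *Abcb1b* from 8798147 to 8866315, both on the plus strand and 49.6 kb apart. In LL2 WT *Abcb1b* was at 18.2, 33.9 and 12.22 CPM. It was at 42.9, 59.7 and 44.9 CPM in *KEAP1* KO #1, at 65.6, 63.3 and 54.9 CPM in #2 and at 79.8, 75.6 and 71.2 CPM in #3. All 9 *KEAP1* KO samples thus lay above the highest LL2 WT sample. *NRF2* KO samples, at 27.3, 52.0 and 16.9 CPM, spread over both ranges. For *KEAP1* KO #1, #2 and #3 the log2 fold change of *Abcb1b* was 1.31, 1.64 and 1.94 (standard error 0.37), with limma adjusted p of 0.0226, 0.00481 and 0.00153. It was 0.56 in *NRF2* KO with a 95% interval from −0.24 to 1.36 (adjusted p = 0.644). The first of these calls did not hold when a parental sample (replicate 1 with adjusted p = 0.0664, or 3 with 0.0937) or *KEAP1* KO #1 replicate 2 (0.0914) was left out, or with only the 2 lines in the fit (0.0719). Replicate 3 was the lowest of the 3 in 4 of the 5 lines for *Abcb1b*. The same call held with replicate 3 as a batch term (adjusted p = 0.00416) and not with replicates 1 and 2 alone (log2 fold change 1.025, adjusted p = 0.0539).

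*Abcb1a* had another pattern. It was at 1.34, 1.71 and 1.70 CPM in LL2 WT, at 2.2, 2.53 and 2.85 CPM in *KEAP1* KO #1, at 1.92, 2.65 and 2.46 CPM in #2, and at 5.85, 6.10 and 5.60 CPM in #3. The samples of *KEAP1* KO #3 stood apart from all others, and those of #1 and #2 overlapped each other above LL2 WT. In *NRF2* KO it was at 0.923, 1.21 and 1.34 CPM, and its highest sample lay just above the lowest of LL2 WT. *Abcb1a* rose in *KEAP1* KO #3, by a log2 fold change of 1.83 with a standard error of 0.20 (limma adjusted p = 1.70e-05). In *KEAP1* KO #1 it was 0.65 (adjusted p = 0.0308), too small for a call, and in #2 it was 0.54 (adjusted p = 0.0521). The difference between clones was itself called, with a log2 fold change of 1.19 for *KEAP1* KO #3 against #1 (adjusted p = 0.00202) and of 1.3 against #2 (adjusted p = 0.00601). Of all tested genes, 4.63% were called in either direction between #3 and #1 and 0.485% between #3 and #2.

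The transcripts of these genes are alike, which bears on how reads are divided between them. Of the stretches of 31 bases in the annotated *Abcb1a* transcripts, 21.7% also occur in *Abcb1b*, and 14.8% of those of *Abcb1b* occur in *Abcb1a*. For the MRP genes the share found in any other gene was at most 1.58%, and for *Abcg2* it was 3.21%. The values of each P-glycoprotein gene are therefore uncertain in part, and their sum was tested as well. The summed CPM averaged 23.0 ± 11.2 in LL2 WT, 51.7 ± 9.21 in *KEAP1* KO #1, 63.6 ± 5.48 in #2, 81.4 ± 4.46 in #3 and 33.2 ± 18.0 in *NRF2* KO. The sum rose in all 3 clones, by 1.26, 1.57 and 1.93 on the log2 scale, and limma gave adjusted p of 0.0203, 0.00434 and 0.00108. In *NRF2* KO it differed from LL2 WT by 0.50 (adjusted p = 0.664). The sum in *KEAP1* KO #1 lost its call under the same alternatives as *Abcb1b*. Between clones the sum was not called, with 0.67 for #3 against #1 (limma adjusted p = 0.255) and 0.36 for #3 against #2 (0.955).

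The next gene on the chromosome, 27.4 kb beyond *Abcb1b*, is *Abcb4* (8893717 to 8959231), a close relative of the P-glycoprotein genes that moves phosphatidylcholine into bile in the liver. It was at 0.329, 0.281 and 0.209 CPM in LL2 WT, at 1.48, 1.21 and 1.68 CPM in *KEAP1* KO #1, at 2.06, 2.40 and 1.82 CPM in #2, and at 3.56, 3.22 and 4.57 CPM in #3. No *KEAP1* KO sample came close to LL2 WT, although all levels were low. *Abcb4* rose by 2.07, 2.56 and 3.38 on the log2 scale, with limma adjusted p of 6.06e-05, 4.88e-06 and 3.93e-07, and its value of 0.38 in *NRF2* KO did not pass the test (adjusted p = 0.611). It shared 2.35% of its 31-base stretches with *Abcb1a*. Within 500 kb of the pair, a distance chosen after the values had been seen, 7 other genes were tested (*Slc25a40*, *Dbf4*, *Rundc3b*, *Crot*, *Tmem243*, *Dmtf1* and *Gm7332*), and 0 of them were called by limma in any line, with 2, 1, 3 and 0 at an unadjusted p under 0.05 in *KEAP1* KO #1, #2, #3 and *NRF2* KO. *Tmem243* had the lowest adjusted p of these (0.00250 in #3, log2 fold change 0.68). The pseudogene *Gm7332* had the largest log2 fold changes of these, 3.25 in #1 (limma adjusted p = 0.1455) and 2.66 in #3 (0.209), without a call. No share of all genes was counted at an unadjusted p under 0.05.

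**Figure D2:**
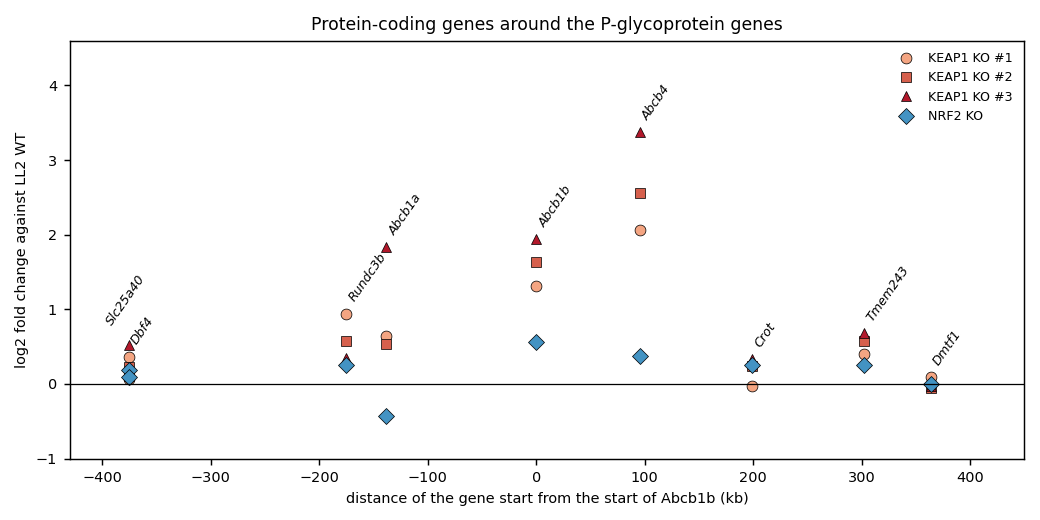
Log2 fold change against LL2 WT (vertical axis) of the protein-coding genes tested within 500 kb of the P-glycoprotein genes, by the distance of each gene's start from the start of *Abcb1b* in kb (horizontal axis), with 1 symbol per line. *Abcb1b* and *Abcb4* lie above 1 in all 3 *KEAP1* KO lines, *Abcb1a* only in #3, and the other genes lie within 1 of 0.

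*Abcc4* encodes MRP4, which exports cyclic nucleotides, prostaglandins and nucleoside analog drugs, and it gave the most even result. It lies on chromosome 14 from 118482692 to 118706219 on the minus strand. LL2 WT samples were at 20.7, 21.4 and 20.3 CPM, *KEAP1* KO #1 at 65.1, 77.3 and 76.0 CPM, #2 at 94.9, 92.4 and 83.3 CPM and #3 at 88.9, 92.5 and 87.4 CPM. The 3 clones were far above the parental line, with replicates close together. *Abcc4* rose by 1.80, 2.11 and 2.1 on the log2 scale in #1, #2 and #3 (standard error 0.09), and limma gave adjusted p of 4.06e-08, 6.37e-09 and 4.08e-09. Each of these calls held in every alternative run, with values from 1.69 to 2.16. In *NRF2* KO *Abcc4* was at 17.1, 19.0 and 19.5 CPM, and all 3 samples lay below the lowest LL2 WT sample, yet the log2 fold change of −0.17 (adjusted p = 0.526) did not pass the test. *Abcc4* was also higher in *KEAP1* KO #2 and #3 than in #1, by log2 fold changes of 0.31 (adjusted p = 0.0403) and 0.30 (adjusted p = 0.0421), which are under the size for a call.

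*Abcc4* and *Abcb1b* were the transporters that rose in all 3 clones, and the 250 bases before their RefSeq start sites are shown to compare the letters of the antioxidant response element in them. Capitals mark a match to the core TGACNNNGC, searched on both strands, and both sequences are given on the strand of the gene in GRCm38.p6. In *Abcc4* (minus strand, chr14:118706220-118706469) the match lies on the opposite strand and reads TGACCCCGC there, with its far end 25 bases before the start site. No match occurs in the 250 bases of *Abcb1b* (plus strand, chr5:8797897-8798146).
Abcc4: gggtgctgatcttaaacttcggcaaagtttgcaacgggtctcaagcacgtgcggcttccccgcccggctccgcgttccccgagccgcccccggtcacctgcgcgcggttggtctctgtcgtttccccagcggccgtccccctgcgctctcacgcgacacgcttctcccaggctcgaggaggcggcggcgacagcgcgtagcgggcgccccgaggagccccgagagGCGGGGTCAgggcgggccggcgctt
Abcb1b: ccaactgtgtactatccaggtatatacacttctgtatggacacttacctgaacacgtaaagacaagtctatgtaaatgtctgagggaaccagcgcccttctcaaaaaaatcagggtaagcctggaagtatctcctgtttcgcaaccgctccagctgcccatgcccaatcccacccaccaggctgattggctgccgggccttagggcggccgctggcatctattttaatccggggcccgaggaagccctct

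RefSeq windows of 300 bases, 250 before and 50 after a start site, were given for 7 of the 9 members, 11 windows in all. The core occurred in 6 of the 11, in *Abcb1a*, *Abcc2*, *Abcc4* and *Abcc10*, whereas 12.4% of 32851 windows of the same length held it. In *Abcc2* it is TGACATAGC, 98 bases before the start site. In *Abcb1a* it is TGACTCCGC on the opposite strand, from base 27 of the transcript on, and RefSeq places that start site 93.0 kb before the start in the gene annotation used for the positions given here. *Abcc10*, which was not called in any line, had the core in both of its windows. The xenobiotic response element core GCGTG, which the aryl hydrocarbon receptor binds, occurred in 2 of the 11 windows, in *Abcc4* and *Abcg2*, and in 32.4% of all windows. The core TGACNNNGC can overlap the AP-1 motif TGACTCA, with which it shares its first letters. A match is one of letters only, and no binding was measured.

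*Abcc1* encodes MRP1, which exports glutathione conjugates, oxidized glutathione and leukotriene C4. The gene lies on chromosome 16 from 14361558 to 14475737 on the plus strand. It was at 30.4, 22.1 and 37.5 CPM in LL2 WT, at 31.7, 30.0 and 43.4 CPM in *KEAP1* KO #1, at 38.9, 37.5 and 54.6 CPM in #2, at 54.3, 56.9 and 77.4 CPM in #3 and at 18.0, 17.2 and 24.9 CPM in *NRF2* KO. Means ran from *NRF2* KO at the bottom to *KEAP1* KO #3 at the top, and no neighbours in this order differed by the test. With the replicate number as a block, each step of the order passed (adjusted p of 0.00678, 0.0455, 0.0212 and 0.00800 from bottom to top), at sizes under those for a call, although the numbers pair the samples of #2 and #3 only among these neighbours. *Abcc1* rose in *KEAP1* KO #3, by a log2 fold change of 1.08 (standard error 0.23, adjusted p = 0.00322 from limma). This was 0.88 without LL2 WT replicate 2 and 0.92 without *KEAP1* KO #3 replicate 3, both under the size for a call. The value was 0.55 (adjusted p = 0.0831) in #2, 0.24 (adjusted p = 0.492) in #1 and −0.56 (adjusted p = 0.382) in *NRF2* KO.

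*Abcc2* encodes MRP2, the apical pump that sends conjugated bilirubin and other conjugates into bile, and it is on chromosome 19 from 43782192 to 43840740 (plus strand). Its level was near 0 in 3 of the lines. LL2 WT samples were at 0.0994, 0 and 0.0609 CPM, *KEAP1* KO #1 at 0.00409, 0.0853 and 0.0290 CPM and *NRF2* KO at 0.0160, 0 and 0.0213 CPM. *KEAP1* KO #2 was at 0.676, 0.554 and 0.166 CPM, and #3 was at 1.11, 2.65 and 0.562 CPM. Every sample of #2 and #3 was therefore above every sample of the other lines. Its log2 fold change was 1.80 (standard error 0.55, adjusted p = 0.0249 from limma) in #2 and 3.14 (adjusted p = 0.000877) in #3. LL2 WT and #1 were both under the level of 3 reads, so no fold is given for #1. At such levels the value depends on the constant added before the logarithm, and for #3 it ran from 1.12 with 1 CPM to 4.81 with 0.01 CPM, called each time. For #2 the value was 0.46 with 1 CPM and 0.77 with 0.5 CPM, and neither was called. Leaving out LL2 WT replicate 2 (adjusted p = 0.0715), *KEAP1* KO #2 replicate 1 (0.108) or *KEAP1* KO #2 replicate 2 (0.0917) also removed the call in #2.

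The clones differed from each other in *Abcc2*. The log2 fold change was 3.26 (adjusted p = 0.00234 from limma) for *KEAP1* KO #3 against #1 and 1.92 (adjusted p = 0.0405) for #2 against #1, and 4.58% of all tested genes were called in either direction between #2 and #1. The difference of #2 from #1 was not called in 14 of the 26 alternatives that tested it. *KEAP1* KO #3 and #2 did not differ by the test (adjusted p = 0.503). *Abcb1a* and *Abcc2* were the members called between clones.

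*Abcc3* encodes MRP3, a basolateral exporter of glucuronides and bile salts, on chromosome 11 from 94343295 to 94392997 (minus strand). It was at 0.467, 0.116 and 0.820 CPM in LL2 WT, at 0.753, 0.575 and 1.65 CPM in *KEAP1* KO #1, at 1.04, 0.873 and 2.53 CPM in #2, at 1.16, 2.03 and 2.55 CPM in #3 and at 0.252, 0.123 and 0.504 CPM in *NRF2* KO. *KEAP1* KO #2 and #3 lay wholly above LL2 WT, and #1 overlapped it. *Abcc3* rose in *KEAP1* KO #3, by a log2 fold change of 1.99 (standard error 0.59, adjusted p = 0.0214 from limma). It was 1.57 (adjusted p = 0.0598) in #2 and 1.05 (adjusted p = 0.219) in #1. With replicate 3 as a batch term the values of #1 and #2 stayed the same and both were called (adjusted p = 0.0313 and 0.00303). The call in #3 was lost with 1 CPM added (log2 fold change 0.99), and without LL2 WT replicate 2 (adjusted p = 0.0749), *KEAP1* KO #3 replicate 2 (0.0661) or *KEAP1* KO #3 replicate 3 (0.0628).

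*Abcc5* encodes MRP5, an exporter of cyclic nucleotides and nucleotide analogs, and lies on chromosome 16 from 20331303 to 20426394 (minus strand). It was at 17.9, 20.0 and 22.3 CPM in LL2 WT and at 15.2, 20.5 and 22.2 CPM in *NRF2* KO, which overlapped almost wholly. The *KEAP1* KO samples were at 33.5, 25.1 and 33.8 CPM in #1, at 30.2, 31 and 45.7 CPM in #2 and at 26.8, 37.3 and 64.5 CPM in #3, and all 9 lay above LL2 WT. The log2 fold change was 0.61 (adjusted p = 0.128 from limma) in #1, 0.81 (adjusted p = 0.0391) in #2 and 1.00 (adjusted p = 0.0140) in #3, where it lay at the size for a call. Without *KEAP1* KO #3 replicate 3 the last value was 0.66, without LL2 WT replicate 1 it was 0.93, and rescaling by the median ratio gave 0.99, and none of these was called.

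*Abcc10* encodes MRP7, which exports taxanes among other compounds, and is found on chromosome 17 from 46303221 to 46328352 (minus strand). It ranged from 1.59 to 2.57 CPM in LL2 WT, from 1.67 to 2.52 CPM in *KEAP1* KO #1, from 2.23 to 3.98 CPM in #2, from 2.45 to 3.62 CPM in #3 and from 1.87 to 2.66 CPM in *NRF2* KO. All lines overlapped LL2 WT. The log2 fold changes were 0.14, 0.53, 0.55 and 0.18 in that order, with limma adjusted p of 0.743, 0.150, 0.139 and 0.864.

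Replicate 3 was the highest of the 3 samples in all 5 lines for *Abcc1*, *Abcc3*, *Abcc5* and *Abcc10*. Over all tested genes 20.5% had this order. The labels name no batch. With replicate 3 as a batch term 3, 4, 7 and 0 members passed as calls in *KEAP1* KO #1, #2, #3 and *NRF2* KO. With replicates 1 and 2 alone, an alternative chosen after the data had been seen, 1 member was called in *KEAP1* KO #1 (*Abcc4*), 4 in #2, 6 in #3 and 0 in *NRF2* KO. The share of all genes called in these fits was not counted. A change in the count of members cannot be told apart from a general change in calls.

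*Abcg2* differed in the opposite direction. It lies on chromosome 6 from 58584523 to 58695676 on the plus strand, and its protein works as a dimer at the plasma membrane. LL2 WT samples were at 5.22, 6.32 and 9.50 CPM and *NRF2* KO samples at 7.87, 8.11 and 9.38 CPM. *KEAP1* KO #1 was at 6.55, 7.13 and 5.46 CPM, within the range of LL2 WT, whereas #2 was at 4.38, 4.61 and 4.82 CPM and #3 was at 3.68, 2.93 and 4.34 CPM, lower than any LL2 WT sample. Its log2 fold change was −0.90 (standard error 0.21, adjusted p = 0.00586 from limma) in #3, which passed the adjusted p but not the size for a call. It was −0.55 (adjusted p = 0.0606) in #2 and −0.10 (adjusted p = 0.779) in #1. Without LL2 WT replicate 1 the value in #3 was −1.09 and without *KEAP1* KO #3 replicate 3 it was −1.03, and both were called.

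**Figure D3:**
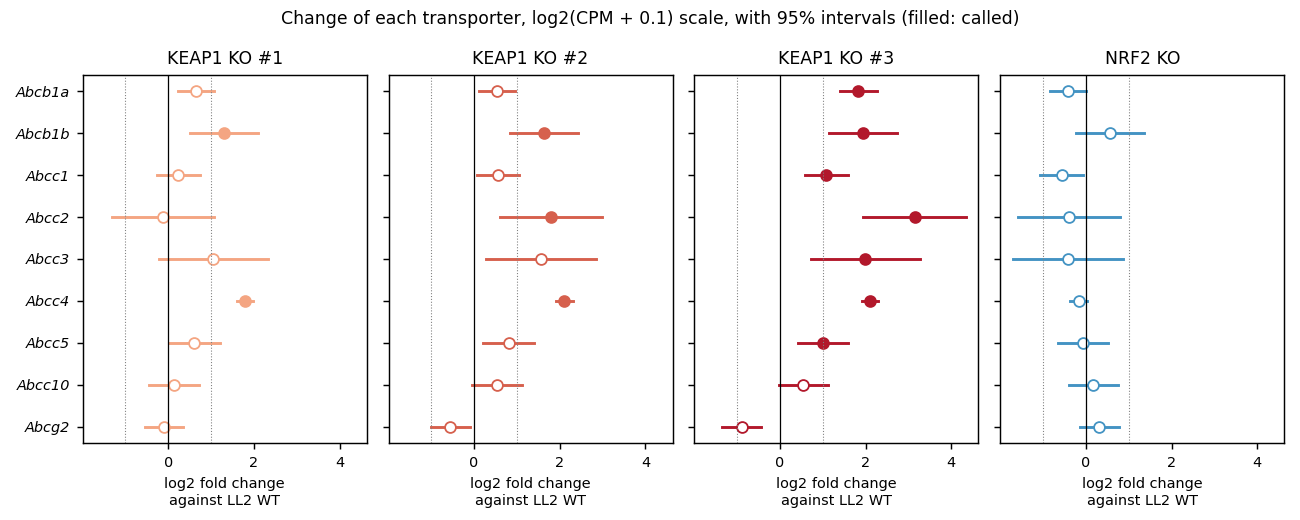
Log2 fold change of the 9 transporters (rows) against LL2 WT on the log2(CPM + 0.1) scale (horizontal axes) in the 4 knockout lines, with 95% intervals from limma. Filled points were called (2, 3, 7 and 0 genes from left to right), and dotted lines mark changes of 2-fold.

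The samples of some transporters did not overlap those of LL2 WT, and the counts given here include called members. All 3 samples lay above every LL2 WT sample for 4 members in *KEAP1* KO #1, 7 in #2, 7 in #3 and 0 in *NRF2* KO, where 24.6%, 23.4%, 22.0% and 8.68% of all tested genes did so. In the same order, 0, 1, 1 and 1 members lay wholly below LL2 WT, where 12.4%, 18.6%, 18.0% and 4.53% of all tested genes did. These were *Abcg2* in #2 and #3 and *Abcc4* in *NRF2* KO, none of them called. Of the members wholly above LL2 WT, *Abcb1a* and *Abcc5* in #1 were not called. Nor were *Abcb1a*, *Abcc1*, *Abcc3* and *Abcc5* in #2, while all of those in #3 were called.

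The *KEAP1* KO lines were also compared with *NRF2* KO, which sets lines made to free NRF2 from KEAP1 against a line made to lack NRF2. In *KEAP1* KO #1, 2 of the 9 were called against *NRF2* KO (*Abcb1a* and *Abcc4*, both higher), beside 6.70% of all genes in either direction. In #2 it was 4 (*Abcc1*, *Abcc2*, *Abcc3* and *Abcc4*, all higher), beside 10.7%. In #3 it was 8, beside 11.2%, and 7 of these were higher and *Abcg2* was lower. For *Abcc1* the difference was 1.12 in #2 (adjusted p = 0.00334 from limma) and 1.65 in #3 (adjusted p = 0.000181). For *Abcg2* in #3 it was −1.20 (standard error 0.21, adjusted p = 0.00100), and the 3 samples of #3 lay below all 3 of *NRF2* KO. *Abcb1b* was called against *NRF2* KO only in #3 (1.38, adjusted p = 0.0149), while the sum of both P-glycoprotein genes was called in #2 (1.07, adjusted p = 0.0423) and #3 (1.43, adjusted p = 0.00897).

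The genes outside the group whose 5 line means followed those of a member most closely were found among 11668 genes by the root mean square difference of centred log2 means. *Abcc4* was followed by *Bace1* (0.0574), *Ly6a* (0.0763) and *Dusp4* (0.0800), and *Abcc5* by *Zfp874b* (0.0322), *Sod2* (0.0387) and *Rsbn1* (0.0426). *Abcc1* was followed by *Nudt13* (0.0509), *Pgd* (0.0757) and *Lpin2* (0.124), and *Abcc3* by *Elovl7* (0.103), *Atg9b* (0.116) and *Avpi1* (0.121). *Abcb1b* was followed by *Gm5176* (0.107), *Id2* (0.110) and *Cd80* (0.124), and *Abcb1a* by *Tspan8* (0.125), *Gm43725* (0.159) and *Tgm2* (0.185). *Abcc2* had no close follower, and its nearest genes *Tnfrsf9*, *Dll1* and *Phex* differed by 0.421 to 0.462. With 5 lines this is a description only.

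Of 44 other ABC genes, 27 were tested, and 6, 5 and 4 were called higher and 0, 2 and 1 lower in *KEAP1* KO #1, #2 and #3, with none called by limma in *NRF2* KO (3 at an unadjusted p under 0.05). Over all tested genes 4.55%, 5.94% and 6.09% were called higher and 3.99%, 7.75% and 7.34% lower in the clones. For the unadjusted p no such share was counted. The median log2 fold changes of the other ABC genes were 0.27, 0.21 and 0.34 in the 3 clones and −0.03 in *NRF2* KO. Beside *Abcb4*, the genes called in all 3 clones were *Abca8b*, which rose from 0.268 CPM to between 0.862 and 2.89 CPM, and *Abcb6*, a transporter linked to porphyrins and heme. Mean *Abcb6* was 19.9 ± 3.77 CPM for the parental line, 54.2 ± 2.39, 62.3 ± 0.857 and 59.2 ± 3.2 CPM for *KEAP1* KO #1, #2 and #3, and 10.8 ± 0.175 CPM for *NRF2* KO. Its log2 fold change was 1.46, 1.66 and 1.58 in the clones (highest adjusted p = 3.33e-06 from limma), and −0.86 in *NRF2* KO (adjusted p = 0.00404), which is under the size for a call.

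**Figure D4:**
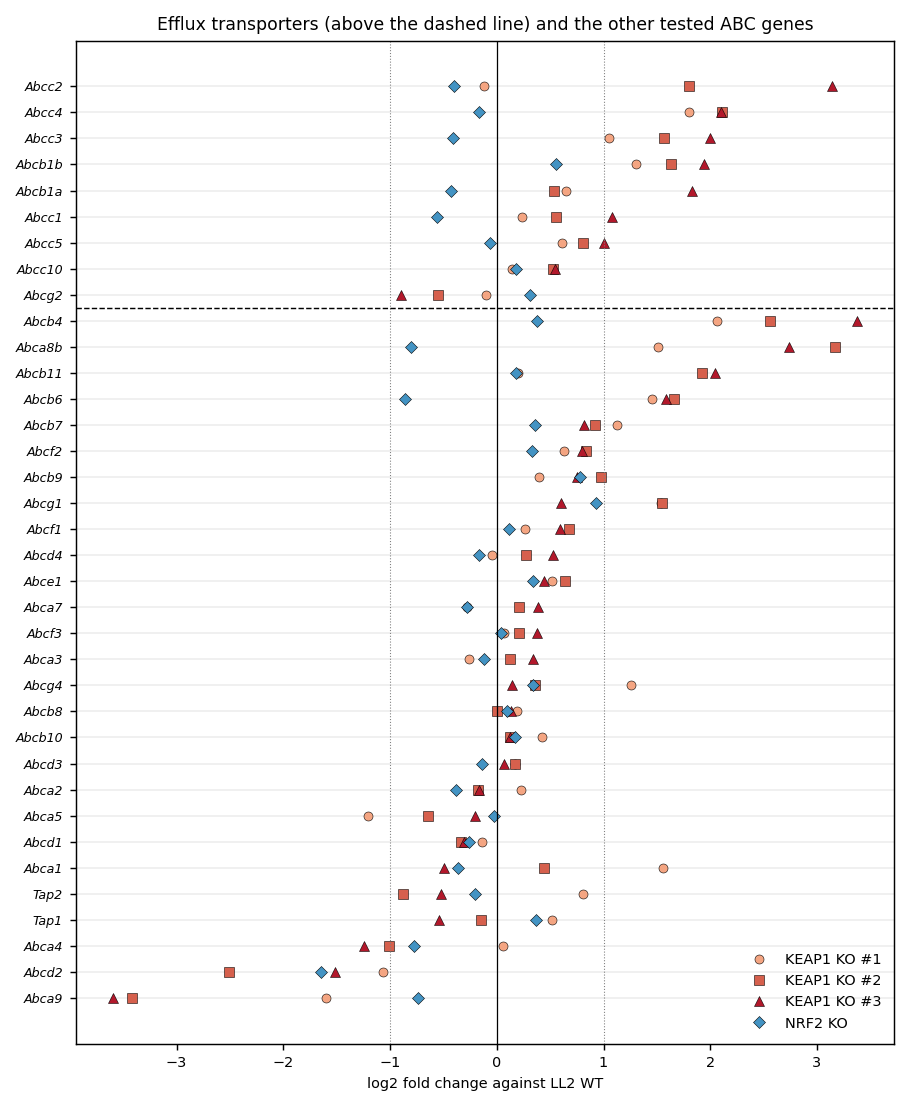
Log2 fold change against LL2 WT (horizontal axis) of the 9 efflux transporters, above the dashed line, and of the 27 other tested ABC genes, below it, each ordered by the value in *KEAP1* KO #3, with 1 symbol per line. *Abcb4* reaches 3.38 in *KEAP1* KO #3, above *Abcc2* at 3.14, while most other ABC genes lie between the dotted lines at 2-fold.

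Steps before and around efflux were read from lists of related genes. Beside the counts of each list, 4.55%, 5.94% and 6.09% of all tested genes were called higher in *KEAP1* KO #1, #2 and #3. Called lower were 3.99%, 7.75% and 7.34%. In *NRF2* KO these shares were 0.0887% and 0.375%. Of 68 enzymes that attach glutathione, glucuronic acid or sulfate, 30 were tested, and 8, 10 and 10 were called higher and 1, 1 and 0 lower in *KEAP1* KO #1, #2 and #3. Their median log2 fold changes were 0.56, 0.69 and 0.53. In *NRF2* KO 0 were higher and 7 lower, with a median of −0.63. *Gsta2* and *Gsta1*, glutathione S-transferases, were listed at 0 in all LL2 WT samples and averaged 204 to 876 CPM and 111 to 478 CPM in the clones, and *Gsta3* rose by log2 fold changes of 9.82 to 10.9. In *NRF2* KO the microsomal transferase *Mgst1* fell by 4.17 on the log2 scale (adjusted p = 1.70e-07 from limma) and the glucuronosyltransferase *Ugt1a6a* fell by 4.35 (adjusted p = 0.000171). *Ugt1a6a* shares exons with other *Ugt1a* genes, so its value is uncertain.

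Of 14 genes that supply or recycle glutathione 11 were tested, and 5, 7 and 7 were called higher and 0, 1 and 1 lower in the 3 clones, with medians of 1.00, 1.78 and 1.55. *Slc7a11*, the cystine importer, rose by log2 fold changes of 2.29, 3.75 and 4.67, and *Gclc* and *Gclm*, the subunits of the enzyme that begins glutathione synthesis, rose by 3.31 to 3.53 and 2.81 to 3.3. In *NRF2* KO 1 of these genes was lower, *Ggt1*, which breaks down glutathione and its conjugates outside the cell. Mean *Ggt1* was 13.7 ± 9.68 CPM for the parental line and 0.593 ± 0.659 CPM for *NRF2* KO, a log2 fold change of −4.46 (adjusted p = 0.00391 from limma).

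Of 20 xenobiotic sensors and transcription factors 17 were tested, with 1 called higher in each clone and 0, 2 and 1 lower. It was *Ahr*, the aryl hydrocarbon receptor, with means of 3.74 ± 1.29 CPM for the parental line and of 12.5 ± 1.5, 14.5 ± 2.74 and 20.2 ± 5.46 CPM for *KEAP1* KO #1, #2 and #3, with log2 fold changes of 1.75, 1.96 and 2.42 (highest adjusted p = 0.000296 from limma). The genes called lower were *Keap1*, which is the gene that was cut, in #2 (−2.07) and #3 (−2.06), and *Nr1h4* in #2 (−1.295). Of 34 other efflux and uptake carriers 12 were tested, with 1, 3 and 3 higher and 0 lower. *Slc22a4*, a carrier of organic cations and ergothioneine, was called in all 3 clones (2.27, 2.66 and 2.59). Of 11 scaffold proteins of apical transporters 9 were tested, with 0, 1 and 1 higher and 0, 1 and 1 lower. In *NRF2* KO 0 genes of the last 3 lists were called by limma, with 3, 2 and 2 at an unadjusted p under 0.05. How many of all tested genes had such an unadjusted p was not counted.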

How the data were processed

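RNA of 15 samples (5 LL2 lines, 3 biologic replicates each) was sequenced as poly(A) libraries. The authors pseudo-aligned the reads with Kallisto to mouse cDNA, summed them to genes and deposited CPM for 35880 gene symbols. The methods name GRCm38.p6 and the labels name GRCm39, and positions given here are from GRCm38 (GENCODE M21). The values are fractional, sum to 998941 to 999306 CPM per sample over named genes, and give no read counts. The methods state an average depth only, at which 3 reads are about 0.1 CPM, so the counting error of each sample is unknown. An entry without a symbol (0.0214% to 0.0491% of the CPM) was left out. *mt-Atp8* averaged 10232 CPM and *mt-Atp6* 4103 CPM although the former is shorter and on the same transcript, so values may be scaled by length and levels were not compared between genes. The CPM of *Abcb1a* and *Abcb1b* were summed as deposited.

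The 14652 genes whose CPM summed to 3 or more across all 15 samples were kept. On log2(CPM + 0.1), limma 3.58.1 (R 4.3.3) was fitted with 1 mean per line and empirical Bayes with a trend. A fold change on this scale understates the change of low genes. P-values were adjusted by the Benjamini-Hochberg method and are two-sided. A call requires both an adjusted p under 0.05 and a change of over 1 on the log2 scale. A fold written without "log2" is a ratio of mean CPM. P-values measure the spread between samples of 1 clone. The procedure was tested on simulated data in which same-numbered samples shared no deviation. That test cannot show how the fit handles the deviations shared by same-numbered samples here. Alternatives were the added constant, the filter, rescaling, the variance trend, fits of 2 lines, replicate terms and leaving out each sample. No 2 samples were identical.

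Same-numbered samples deviated together (every r over 0.1 over 11676 genes) in 2 of 10 pairs of lines. These were *KEAP1* KO #2 with #3 and *KEAP1* KO #3 with *NRF2* KO. With LL2 WT, r was −0.019 to 0.086 for number 1, 0.267 to 0.529 for number 2 and 0.437 to 0.631 for number 3. The main fit has no replicate term, so it leaves out what numbers 2 and 3 share. In the 2 pairs the same members were called with a replicate block. The share of all genes called rose from 0.485% to 0.921% and from 11.2% to 13.0%. The members and gene lists were chosen with earlier results of these data known. Named genes are the 9 members, *Abcb4*, 3 genes that check the labels, and from each list the genes called in all 3 clones with a mean of at least 1 CPM (at most 3) and those called in *NRF2* KO (at most 2). Promoter windows are from RefSeq (GRCm38.p6). Figures were drawn with matplotlib 3.10.9.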

Additional observations from a re-analysis of the deposited data

Results flagged for a closer look

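*Abcb1a* and *Abcc2* differed between *KEAP1* KO clones by limma's test of the difference itself. For *Abcb1a* the log2 difference was 1.19 for *KEAP1* KO #3 against #1 (adjusted p = 0.00202) and 1.3 for #3 against #2 (adjusted p = 0.00601), with all 3 samples of #3 above all samples of the other clones. The first was 0.96 with 1 CPM added, under the size for a call, and the second was not called with only those 2 lines in the fit (adjusted p = 0.0655). The summed CPM of *Abcb1a* and *Abcb1b* was not called in either comparison (limma adjusted p = 0.255 and 0.955). How reads were divided between these 2 genes was not tested. *Abcc2* differed by 3.26 for #3 against #1 (adjusted p = 0.00234) and by 1.92 for #2 against #1 (adjusted p = 0.0405), again with no overlap of samples, at levels of 0.00409 to 2.65 CPM. The second of these values ran from 0.48 to 3.45 over the alternatives, with the added constant at either end. *Keap1* itself averaged 11.8 CPM in #1 against 5.53 and 5.58 CPM in #2 and #3, and its part in these differences was not tested.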

How the results depend on the processing

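The calls of *Abcc4* in all 3 clones, *Abcb1a* in *KEAP1* KO #3, *Abcb1b* in #2 and #3 and *Abcc2* in #3 kept their direction and side of the threshold in all alternatives run (*Abcc2* was not tested with a mean of at least 1 CPM). Rescaling by the median ratio shifted the all-gene median in *KEAP1* KO #1 from 0.11 to 0.01 (log2), and no member changed direction with it. In *KEAP1* KO #1 the count of called transporters was 1 instead of 2 with only the 2 lines compared and with replicates 1 and 2 alone, and 1 to 2 when 1 sample was left out. The samples that lowered it were LL2 WT replicates 1 and 3 and *KEAP1* KO #1 replicate 2. The summed P-glycoprotein value there was 1.26 with only the 2 lines (adjusted p = 0.0666) and 1.00 with replicates 1 and 2 alone (adjusted p = 0.0530), both without a call, and 0.95 to 1.63 when 1 sample was left out. The count between clones was 1 instead of 2 with a mean of at least 1 CPM, which removes *Abcc2*, and 2 to 3 when 1 sample was left out. In *KEAP1* KO #2 the count ran from 2 to 4 and in #3 from 5 to 7 over all alternatives.

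Small values changed sign when 1 sample was left out, with ranges of −0.40 to 0.10 for *Abcc2*, −0.0022 to 0.33 for *Abcc10* and −0.29 to 0.14 for *Abcg2* in *KEAP1* KO #1, and −0.996 to 0.0504 for *Abcc3* and −0.18 to 0.10 for *Abcc5* in *NRF2* KO. *Abcg2* in #1 was 0.25 with replicates 1 and 2 alone. None of these was called. A fit with the replicate number as a block called 3, 4, 7 and 0 members in *KEAP1* KO #1, #2, #3 and *NRF2* KO. Samples of numbers 2 and 3, but not of number 1, deviated together with those of LL2 WT. The gain was *Abcc3* in #1 and #2 (adjusted p = 0.0278 and 0.00276 from limma). The cause of these shifts was not tested. For the fit with the block, the share of all genes called against LL2 WT was not counted. The depth of each sample is unknown. At the stated average, 3 reads are about 0.1 CPM, and *Abcc2* lay under that level in every sample of LL2 WT, *KEAP1* KO #1 and *NRF2* KO.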
